A study of Mus musculus with 18 samples.

Results

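The 8 genes followed here encode transcription factors outside the *Hox* clusters that pattern the limb, the dermis and the skeleton. They are *Tbx15*, *Tbx4*, *Pitx1*, *Shox2*, *Lmx1b*, *Msx1*, *Msx2* and *Dlx5*, chosen by name, and all 8 were found by symbol among the 38924 Ensembl genes of the count table. Fibroblasts of the heart (HF), kidney (KF) and tail (TF) were taken from male mice aged 10 weeks, which carried Rosa mT/mG on a C57BL/6 background so that a membrane TdTomato reporter marks the cells, and were grown for 10 days. One portion was placed on gelatin foam beneath the capsule of the kidney in syngeneic recipients (C57BL6/J, aged 10 to 11 weeks), and CD45−;TdTomato+ cells were sorted back 3 days later (HFs, KFs, TFs). The rest of the cells were replated and stayed 3 more days in culture (HFc, KFc, TFc). Each of the 6 groups had 3 libraries, which the study describes as biological replicates. Neither it nor the labels say whether each came from a separate mouse, so the p-values measure the spread between these samples. The gate selects on CD45 and the reporter, not on a fibroblast marker, and in bulk RNA fewer cells of a type cannot be told apart from less RNA per cell.

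These factors bind DNA through a T-box (*Tbx15*, *Tbx4*) or a homeodomain (the other 6). In the embryo *Tbx4* and *Pitx1* specify the hindlimb, *Tbx15* acts in dermis and skeleton, *Shox2* in the proximal limb bones and the sinus node of the heart, and *Lmx1b* in the dorsal limb, the kidney glomerulus and the nails. *Msx1* and *Msx2* are targets of bone morphogenetic protein (BMP) signalling in mesenchyme, and *Dlx5* drives bone formation.

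The libraries held between 17927838 and 32245168 counts. Levels are given in CPM, a gene's counts relative to the TMM-scaled size of its library, and 3 counts, taken as the floor of detection, correspond to 0.089 to 0.180 CPM. Floors cover counting error only. KFs replicate 3 stood apart. Its *Xist* level was 1490 CPM against at most 0.404 CPM in the other libraries, 4 Y-linked genes summed to 0.719 CPM against 175 to 230 CPM, and its correlation with KFs 1 and 2 was at most 0.918 against 0.973 between those. The summed level of 7 fibroblast markers was 13500 CPM in this library and 47100 and 58000 CPM in the other KFs libraries. It was 9400 to 11900 CPM over the cultures of all organs, 39100 to 73700 CPM in HFs and 21100 to 26900 CPM in TFs. The sum of 8 keratinocyte markers was 229 CPM in KFs 3 against 5.25 and 8.57 CPM in the other KFs libraries. This keratinocyte sum was almost wholly *Dsp* (186 CPM) and *Perp* (41.0 CPM), genes of epithelial cell junctions, while *Krt14* and *Krt1* were at 0 and *Krt10* was at 0.679 CPM. *Krt5* had 7 counts in KFs 3 and at most 2 in any other library, and *Trp63* had 19 counts against 2 and 5 in KFs 1 and 2. In the other groups *Trp63* had 0 to 6 counts in HFc, 5 to 9 in KFc, 10 to 17 in HFs, 13 to 26 in TFc and 12 to 25 in TFs, so its level in KFs 3 was not outside the series. The *Xist* and Y-linked levels go against the male donors, so the library labelled KFs 3 is of uncertain origin. Its title gives the transplanted kidney group and its library name carries no replicate code. Fitted changes of the main kidney results are given with and without it, and levels per group include it. Markers of the proximal tubule, a host tissue at the graft site, summed to 124, 157 and 1140 CPM in HFs and 138 to 339 CPM in TFs against 21.2 to 27.2 CPM in the cultures of those organs. In KFs they summed to 65.9 to 127 CPM against 105 to 114 CPM in KFc, and 7 of the 10 markers rose there. The recipients' own cells carry no TdTomato, so the gate selects against them. The part of such cells in the changes below was not tested.

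The promoters of the paralogs *Msx1* and *Msx2* are shown because their fitted changes after transplantation had opposite signs in tail cells (0.72 and −1.24). That of *Msx1* was under the fold limit, and in heart and kidney cells both genes had negative changes. Those of *Tbx4* and *Shox2* are shown because these genes separated the organs. Each run holds the 250 bases before the RefSeq start site (GRCm38.p6), from 5′ to 3′ on the gene's strand, with capitals for a match to a searched motif. The starts are those of the RefSeq table. The windows of *Tbx4* and *Msx2* lie inside the gene spans given below, whose GENCODE annotation begins further upstream. Windows were found for 5 of the 8 genes, *Lmx1b* being the other.
Msx1, chr5:37824586-37824835, minus strand: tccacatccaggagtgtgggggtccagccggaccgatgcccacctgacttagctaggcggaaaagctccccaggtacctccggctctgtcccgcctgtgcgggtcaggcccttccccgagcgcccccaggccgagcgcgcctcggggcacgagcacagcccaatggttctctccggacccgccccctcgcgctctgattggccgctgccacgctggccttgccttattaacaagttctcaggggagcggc
Msx2, chr13:53472781-53473030, minus strand: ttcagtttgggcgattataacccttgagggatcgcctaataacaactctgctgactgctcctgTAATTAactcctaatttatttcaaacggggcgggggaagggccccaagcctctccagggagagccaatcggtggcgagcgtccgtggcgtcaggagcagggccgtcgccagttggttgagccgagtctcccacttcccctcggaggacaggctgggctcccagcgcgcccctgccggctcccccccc
Tbx4, chr11:85896515-85896764, plus strand: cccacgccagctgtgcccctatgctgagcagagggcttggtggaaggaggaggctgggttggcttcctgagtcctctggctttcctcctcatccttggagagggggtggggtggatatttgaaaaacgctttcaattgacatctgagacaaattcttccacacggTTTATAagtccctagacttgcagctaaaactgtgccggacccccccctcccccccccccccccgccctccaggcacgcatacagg
Shox2, chr3:66981772-66982021, minus strand: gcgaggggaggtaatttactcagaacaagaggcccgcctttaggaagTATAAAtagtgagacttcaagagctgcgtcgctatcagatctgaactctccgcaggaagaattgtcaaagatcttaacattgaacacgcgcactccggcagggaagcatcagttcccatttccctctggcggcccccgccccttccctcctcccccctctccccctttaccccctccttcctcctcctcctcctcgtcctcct
Both strands were searched for TAATTA (a homeodomain core), TCACACC (a T-box sequence), GGCGCC and CAGAC (SMAD sequences) and TATAAA. *Msx2* had 1 TAATTA, starting 187 bases before its start site, which 4.84% of 32851 promoter windows of this length hold. *Tbx4* and *Shox2* each had 1 TATAAA, held by 12.4% of windows, and the match of *Tbx4* lay on the opposite strand. The window of *Msx1* held none of the 5 motifs and was 68.0% G and C, that of *Msx2* 61.6%, with a median of 52.4% over all windows. A match describes letters, not a bound site.

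Of the 8 genes, 6 passed the filter on low counts and were tested among 16577 genes, and *Pitx1* and *Lmx1b* did not pass. *Tbx15* (ENSMUSG00000027868, chr3:99240381-99354259) was detected in every library. It had 17.9, 14.5 and 15.2 CPM in HFc, 6.41, 6.14 and 6.05 CPM in KFc and 21.8, 22.2 and 21.6 CPM in TFc. After transplantation it had 10.2, 9.47 and 8.05 CPM in HFs, 10.1, 12.6 and 4.48 CPM in KFs and 41.3, 36.0 and 32.6 CPM in TFs. Tail cells were thus highest in both states, and transplanted and cultured libraries did not overlap in heart or in tail cells. KFs 3 was the lowest of its group.

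*Tbx4* (ENSMUSG00000000094, chr11:85886422-85916097) was a gene of the tail cells, with 7.12, 7.26 and 8.02 CPM in TFc and 7.49, 7.95 and 8.48 CPM in TFs. In heart cells it had 7, 10 and 4 counts in HFc and 11, 9 and 18 counts in HFs. It had no counts in KFc and 1, 1 and 2 counts in KFs, so the kidney groups lay at or under the floor in both states. *Pitx1* (ENSMUSG00000021506, chr13:55825051-55836192), which acts upstream of *Tbx4* in the hindlimb, was listed at 0 in all 6 tail libraries and in all 3 HFs libraries, and had 1 count in HFc. Its highest counts were in KFc, with 14, 6 and 21, followed by 3, 3 and 4 in KFs. *Tbx4* was thus highest in tail and *Pitx1* in kidney cells. *Pitx1* shares 1.395% of its 75-base windows, and some exon sequence on the same strand, with Gm28760, so a part of these few counts is uncertain.

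*Shox2* (ENSMUSG00000027833, chr3:66971727-66981771) was highest in heart cells, with 16.7, 15.8 and 18.6 CPM in HFc and 10.9, 12.9 and 10.3 CPM in HFs. Tail cells had 4.60, 2.94 and 3.51 CPM in TFc and 2.09, 1.09 and 1.95 CPM in TFs. Kidney cells had 1.23, 1.15 and 1.53 CPM in KFc and 1.54, 0.641 and 0.160 CPM in KFs, the lowest being KFs 3. Exons of *Shox2* overlap those of *Rsrc1* on the opposite strand, which the stranded counting is stated to separate. *Lmx1b* (ENSMUSG00000038765, chr2:33560965-33640511) had at most 11 counts in 17 libraries and 22 in KFs 3, so no order of its groups could be read at this depth.

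*Msx1* (ENSMUSG00000048450, chr5:37820485-37824583) had 5.14, 3.69 and 4.81 CPM in HFc, 1.79, 1.47 and 2.23 CPM in KFc and 2.11, 2.59 and 3.24 CPM in TFc. After transplantation it had 3.13, 3.00 and 2.62 CPM in HFs, 0.445, 0.449 and 0.639 CPM in KFs and 5.78, 3.23 and 4.07 CPM in TFs. *Msx2* (ENSMUSG00000021469, chr13:53466884-53473074) was instead lowest in heart cells in culture, with 15, 11 and 8 counts in HFc against 2.24, 2.06 and 2.03 CPM in KFc and 2.14, 2.43 and 2.41 CPM in TFc. It had no count in any HFs library, 2, 10 and 4 counts in KFs and 1.07, 0.908 and 0.975 CPM in TFs. *Dlx5* (ENSMUSG00000029755, chr6:6877805-6882085) was mainly in tail cells, with 3.15, 2.79 and 4.25 CPM in TFc and 0.642, 1.41 and 0.890 CPM in TFs. It had 4, 14 and 15 counts in KFc, 4, 12 and 5 in KFs, 4 counts in 1 HFc library and 0 in the other 5 heart libraries.

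**Figure D1:**
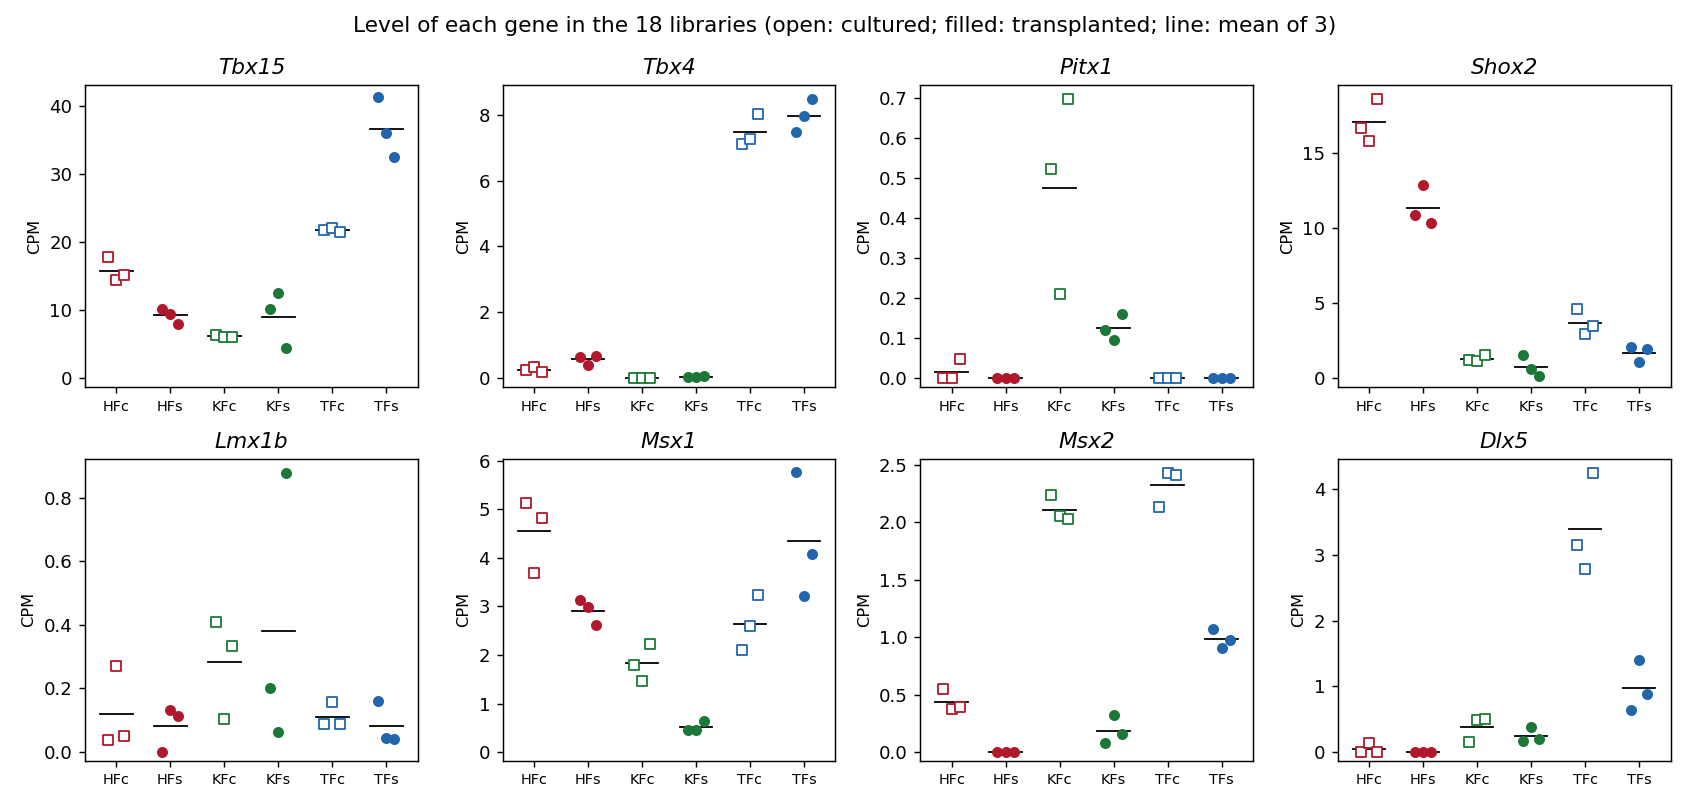
CPM of each gene (vertical axes, linear, each with its own range) in the 18 libraries, by group (horizontal axes). Squares are cultured, circles transplanted libraries, lines the means of 3; *Tbx15* and *Tbx4* are highest in the tail groups, *Shox2* in the heart groups, and *Msx2* is lower in each transplanted group than in its culture.

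Per kilobase of exon, which allows genes to be compared, *Tbx15* was the highest of the 8 in TFs (9.78 ± 1.17 CPM per kb, SD, n = 3), TFc (5.83 ± 0.081), KFc (1.66 ± 0.051) and KFs (2.42 ± 1.11). In the heart groups *Shox2* was highest (5.15 ± 0.431 in HFc and 3.43 ± 0.403 in HFs), followed by *Tbx15* (4.23 ± 0.474 and 2.47 ± 0.294). *Msx1* and *Msx2* had 1.47 ± 0.245 and 0.133 ± 0.029 in HFc, but 0.590 ± 0.123 and 0.643 ± 0.035 in KFc, where their libraries overlapped.

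The first comparison asked how the organs differed in culture. Differences between groups were tested with edgeR and called at an adjusted p under 0.05. Between HFc and TFc 5 of the 6 tested genes were called, 2 higher and 3 lower in HFc, where 41.9% of all genes were called (20.9% higher and 21% lower). The libraries of these groups did not overlap for 6 of the 6, as for 62.1% of all genes. *Shox2* was higher in heart cells (log2 fold change 2.21 ± 0.403, SE, adjusted p = 0.000399), and so was *Msx1* (0.78 ± 0.262, adjusted p = 0.0252). *Tbx4* (−4.78 ± 0.297, adjusted p = 2.72e-08), *Msx2* (−2.40 ± 0.388, adjusted p = 0.000224) and *Dlx5* (−5.95 ± 0.851, adjusted p = 7.7e-05) were lower. The *Msx1* call was lost in 8 of 27 alternatives, with library size alone for scaling among them (adjusted p up to 0.107 over these alternatives). *Tbx15* differed by −0.46 (95% interval −0.97 to 0.04, adjusted p = 0.133), and without KFs 3 in the fit its adjusted p was 0.00228.

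Between KFc and TFc 4 of 6 were called, all lower in kidney cells, where 36.4% of all genes were called (17.8% higher and 18.5% lower), and the same number did not overlap (59.7% of all genes). *Tbx4* was at least 70.8-fold lower (adjusted p = 5.47e-09), with the fold taken against the mean level of 3 counts in KFc. *Dlx5* (−3.14 ± 0.682, adjusted p = 0.00279), *Tbx15* (−1.82 ± 0.248, adjusted p = 4.31e-05) and *Shox2* (−1.50 ± 0.421, adjusted p = 0.0115) followed. The *Shox2* call was lost without TFc 1 (adjusted p = 0.0503). *Msx2* differed by −0.14 (95% interval −0.90 to 0.61) and *Msx1* by −0.53 (−1.09 to 0.04). *Pitx1*, not tested in the main fit, was at least 4.23-fold higher in KFc than the floor of TFc, and with no filter on counts it passed the threshold (adjusted p = 0.00786).

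Between HFc and KFc all 6 tested genes were called, 4 higher and 2 lower in HFc, where 29.2% of all genes were (15.1% and 14%), and none of the 6 overlapped (54.4% of all genes did not). *Shox2* (3.70 ± 0.438, adjusted p = 1.16e-05), *Tbx15* (1.35 ± 0.247, adjusted p = 0.000655) and *Msx1* (1.31 ± 0.266, adjusted p = 0.00154) were higher in heart cells, and *Tbx4* was at least 2.50-fold higher (adjusted p = 1.45e-05). *Msx2* was lower (−2.25 ± 0.387, adjusted p = 0.000615), and so was *Dlx5* (−2.81 ± 0.864, adjusted p = 0.0254), whose call was lost without any of 4 libraries (adjusted p 0.0714 to 0.0852). The order of *Shox2* in culture was thus HFc, TFc and KFc, and each step was called.

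The second comparison asked the same of the transplanted cells. Between HFs and TFs 5 of 6 were called, 1 higher and 4 lower in HFs, where 23.1% of all genes were (10.3% and 12.7%), and 6 did not overlap (42.3% of all genes). With library size alone for scaling 5720 of 16577 genes were called, 1123 of them higher, against 3822 and 1713 in the main fit. *Shox2* was higher in heart cells (2.73 ± 0.427, adjusted p = 0.000246). *Tbx15* (−1.99 ± 0.248, adjusted p = 2.86e-05) and *Tbx4* (−3.77 ± 0.278, adjusted p = 4.88e-07) were lower, *Msx2* was at least 6.93-fold lower (adjusted p = 7e-06) and *Dlx5* at least 6.90-fold lower (adjusted p = 0.000642). These 5 calls held in each of the 27 alternatives. *Msx1*, which was higher in heart than in tail cells in culture, differed by −0.58 (95% interval −1.14 to −0.02, adjusted p = 0.131).

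Between KFs and TFs 4 of 6 were called, all lower in kidney cells, where 29.1% of all genes were called (15.3% higher and 13.8% lower), and 5 did not overlap (35.1% of all genes). *Msx1* was lower (−3.08 ± 0.296, adjusted p = 2.73e-06), and *Msx2*, which did not pass the threshold in culture, was lower as well (−2.33 ± 0.417, adjusted p = 0.00102). *Tbx15* was lower (−2.01 ± 0.246, adjusted p = 2.79e-05) and *Tbx4* at least 70.9-fold lower (adjusted p = 4.45e-08). Without KFs 3 the same 4 were called, with *Tbx15* at −1.68, *Msx1* at −3.27 and *Msx2* at −2.22. *Shox2* (−1.13, 95% interval −2.11 to −0.16, adjusted p = 0.0767) and *Dlx5* (−1.94, −3.42 to −0.46, adjusted p = 0.0512) did not pass. *Dlx5* passed in 10 of 27 alternatives (adjusted p down to 0.00887 with DESeq2), and *Shox2* in 3, being −2.02 without KFs 1 (adjusted p = 0.0018) and −0.67 without KFs 3. The *Msx2* call was lost in a fit of only the groups compared (adjusted p = 0.0511), which called 1137 of 15211 genes against 4819 of 16577 in the main fit.

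Between HFs and KFs 5 of 6 were called, 3 higher and 2 lower in HFs, where 33.2% of all genes were (14.2% and 19%), and 5 did not overlap (35.6% of all genes). With library size alone for scaling 6657 of 16577 genes were called, 1528 of them higher, against 5504 and 2356 in the main fit. *Shox2* (3.87 ± 0.455, adjusted p = 1.95e-05) and *Msx1* (2.50 ± 0.294, adjusted p = 1.93e-05) were higher in heart cells, and *Tbx4* was at least 5.16-fold higher (adjusted p = 3.36e-05). *Msx2* was at least 1.32-fold and *Dlx5* at least 1.75-fold lower in HFs (adjusted p = 0.000478 and 0.00716), both from at most 12 counts in a KFs library. A fit of only these 2 groups kept *Shox2* and *Msx1*, and called 883 of 15350 genes. *Tbx15* differed by 0.02 (95% interval −0.50 to 0.54), and by −0.29 without KFs 3. Without that library the same 5 were called, with *Shox2* at 3.42 and *Msx1* at 2.70.

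**Figure D2:**
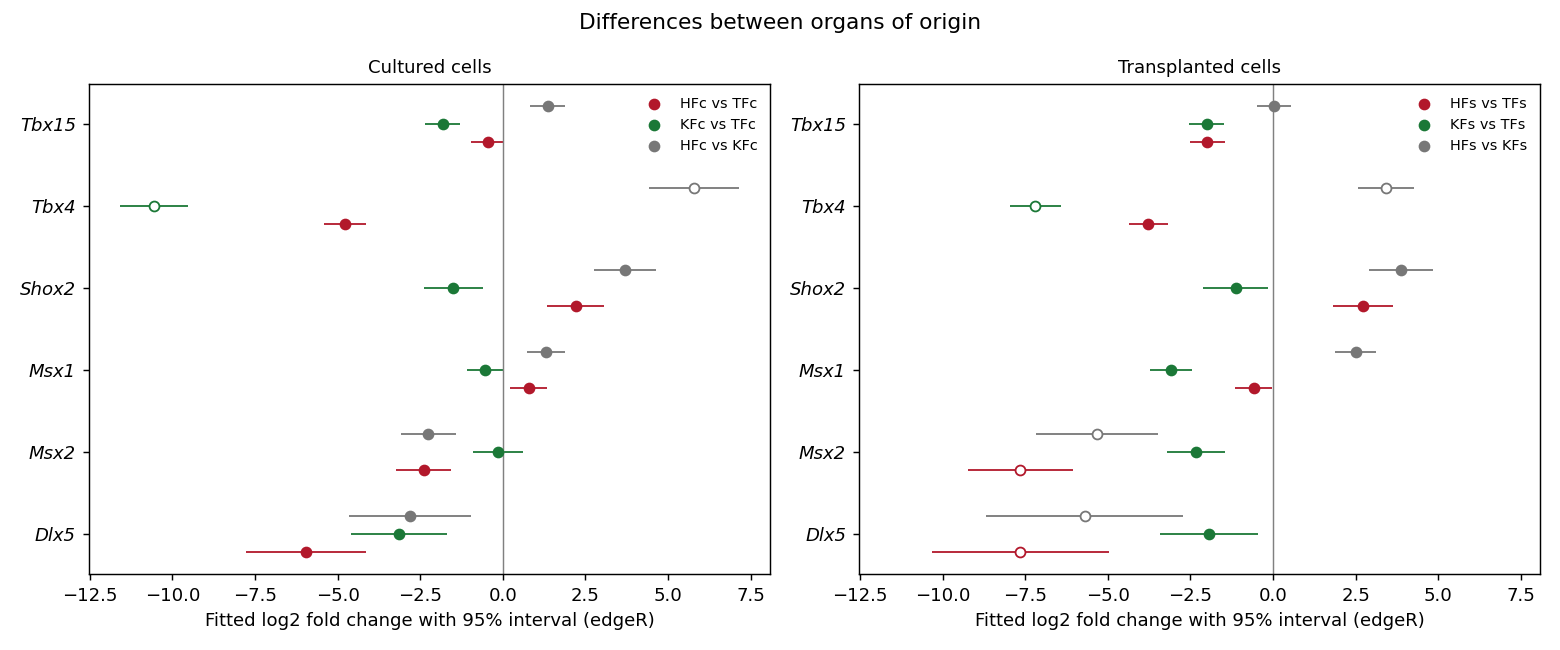
Fitted log2 fold change (horizontal axes) between organs for the 6 tested genes, in cultured (left) and transplanted (right) cells, with 95% intervals. Open symbols mark genes of which 1 group never exceeds 3 counts, where the fitted value is no measured fold; *Shox2* is higher in heart cells in both panels and *Msx1* in kidney cells lies at −0.53 on the left and −3.08 on the right.

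The third comparison set transplanted against cultured cells of each organ, with a call requiring also a log2 fold change beyond 1. In heart cells 2 of 6 were called, 1 higher and 1 lower, where 27.7% of all genes were (18.3% and 9.33%), and 5 did not overlap (67.3% of all genes). *Msx2* fell by at least 3.08-fold against the floor (adjusted p = 1.35e-05), and this call held in the 26 alternatives that tested it. In a fit of HFs and HFc alone *Msx2* and *Tbx4* did not pass the filter and none of the genes was called. *Tbx4* rose (1.10 ± 0.309, adjusted p = 0.00993), from 21 counts in all to 38, a call lost when libraries were thinned (adjusted p = 0.154), without HFs 3 (adjusted p = 0.0687) or without HFc 3, where it came under the fold limit. Its level was 0.661, 0.397 and 0.683 CPM in HFs 1, 2 and 3, whose proximal tubule sums were 157, 1140 and 124 CPM. *Tbx15* (−0.78 ± 0.244, adjusted p = 0.0129) and *Msx1* (−0.64 ± 0.262, adjusted p = 0.048) passed the p threshold at a smaller fold than the limit. *Shox2* differed by −0.59 (95% interval −1.40 to 0.23), and *Dlx5* lay at or under the floor in 5 of the 6 libraries. The summed level of 5 cardiomyocyte markers was 92.2 to 107 CPM in HFc and 1.80 to 4.59 CPM in HFs, nearly all of it *Tnnt2* in HFc, where *Myh6*, *Myl2* and *Nppa* were at 0. Osteoblast and chondrocyte markers summed to 465 to 482 CPM in HFc and 218 to 253 CPM in HFs, mostly through *Sox9* (336 to 193 CPM on average) and *Col2a1* (114 to 5.14 CPM), while *Runx2* went from 21.3 to 35.6 CPM. Of the 5 tested, *Col2a1* alone was called, lower. The part of these cells in the heart values was not tested.

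In kidney cells 3 of 6 were called, 1 higher and 2 lower, where 22.6% of all genes were (14.7% and 7.99%), and 3 did not overlap (51.2% of all genes). *Msx2* fell (−3.43 ± 0.417, adjusted p = 1.78e-05) and *Msx1* fell (−1.83 ± 0.292, adjusted p = 0.000107), and both calls held in all 27 alternatives. Without KFs 3 they were −3.36 and −2.06. The call of *Tbx4* rests on 0 counts against 4 in all, both groups being at or under the floor, and was lost in 7 of 26 alternatives, without KFs 3 among them (adjusted p = 0.0973). *Tbx15* differed by 0.55 (95% interval 0.03 to 1.08, adjusted p = 0.0754), and without KFs 3 by 0.83 (adjusted p = 7.27e-05). *Shox2* differed by −0.75 (95% interval −1.72 to 0.22, adjusted p = 0.19), by −1.64 without KFs 1 (adjusted p = 0.00483) and by −0.33 without KFs 3. *Dlx5* differed by −0.58 (95% interval −2.08 to 0.92, adjusted p = 0.52), and by −0.49 without KFs 3. Macrophage markers summed to 384 to 406 CPM in KFc and 11.1 to 121 CPM in KFs. Skeletal muscle markers summed to 168 to 179 CPM in KFc and 19.3 to 73.5 CPM in KFs, nearly all of it *Des* and *Acta1*, both lower, with *Myod1* and *Ckm* at 0. Macrophages carry CD45, against which the gate on transplanted cells selects, and the part of either cell type in these values was not tested.

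In tail cells 3 of 6 were called, all lower, where 16.5% of all genes were (11% higher and 5.53% lower), and 4 did not overlap (60.4% of all genes). *Msx2* (−1.24 ± 0.368, adjusted p = 0.0173), *Dlx5* (−1.78 ± 0.640, adjusted p = 0.0415) and *Shox2* (−1.11 ± 0.420, adjusted p = 0.047) fell. The call of *Shox2* was kept in 8 of 27 alternatives, that of *Dlx5* in 18 and that of *Msx2* in 25, and none of the 3 was called without TFs 2 or without TFs 3. *Tbx15* (0.75 ± 0.237, adjusted p = 0.0211) and *Msx1* (0.72 ± 0.263, adjusted p = 0.041) passed the p threshold in the other direction at a smaller fold than the limit. *Tbx4* differed by 0.10 (95% interval −0.40 to 0.60). Macrophage markers summed to 168 to 194 CPM in TFc and 32.8 to 40.0 CPM in TFs, with 5 of 6 lower. Of the keratinocyte markers *Dsp* went from 83.6 to 87.7 CPM in TFc to 3.21 to 5.34 CPM in TFs and made up nearly all of the summed level in TFc. *Krt10* had 1.51 ± 0.216 and 1.47 ± 0.174 CPM, and *Krt5* and *Krt1* were at 0 in all 6 of these libraries. Osteoblast and chondrocyte markers summed to 182 to 185 CPM in TFc and 104 to 110 CPM in TFs, with *Sox9* and *Sp7* called lower of the 5 tested. The part of these cells in the falls was not tested, and the CD45 gate applies to macrophages here too.

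**Figure D3:**
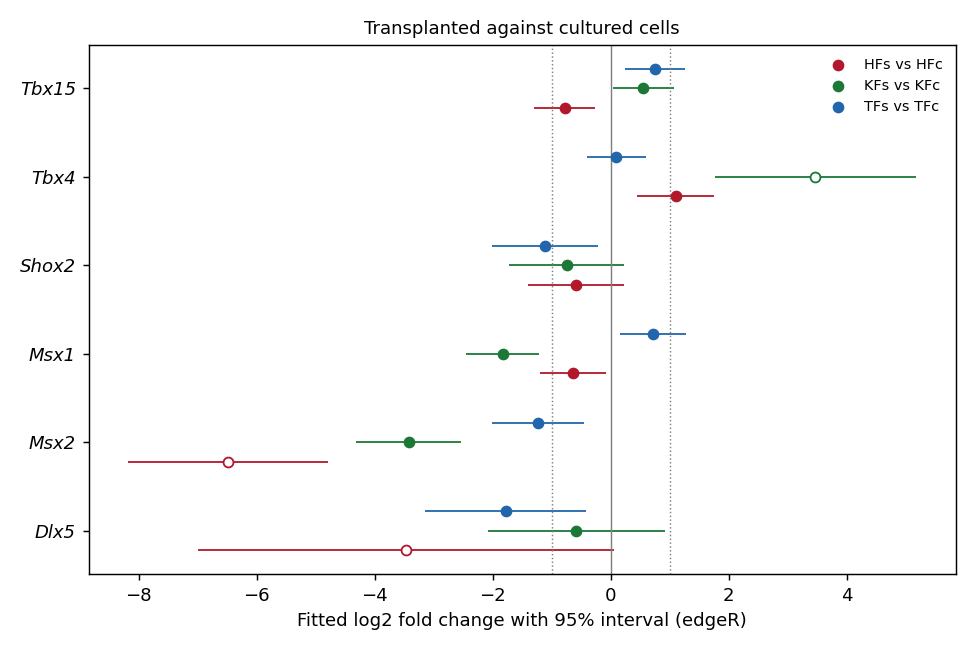
Fitted log2 fold change (horizontal axis) of transplanted against cultured cells for the 6 tested genes, with 95% intervals and dotted lines at −1 and 1. Open symbols mark genes of which 1 group never exceeds 3 counts; *Msx2* is below 0 in all 3 organs, and *Tbx15* and *Msx1* lie on different sides of 0 in heart and tail cells.

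The responses of the organs were then compared by interaction contrasts. Between heart and tail 3 of 6 genes differed, all with a lower response in heart cells, where 22.8% of all genes did (10.1% higher and 12.7% lower): *Tbx15* (−1.53 ± 0.340, adjusted p = 0.00486), *Msx1* (−1.36 ± 0.371, adjusted p = 0.0158) and *Msx2* (adjusted p = 0.00162, with HFs at 0). Between kidney and tail 2 of 6 differed, both lower in kidney cells, where 11.1% of all genes did (4.99% higher and 6.07% lower), *Msx1* (−2.55 ± 0.393, adjusted p = 0.000815) and *Msx2* (−2.19 ± 0.544, adjusted p = 0.0206). Without KFs 3 these were −2.77 and −2.10. In that fit 3619 of 16923 genes differed, 1645 of them higher, against 1835 of 16577 with KFs 3. Between heart and kidney 2 of 6 differed, where 26.2% of all genes did (10.7% higher and 15.5% lower in heart cells), *Tbx15* (−1.33 ± 0.346, adjusted p = 0.0104) and *Msx1* (1.19 ± 0.389, adjusted p = 0.0342). Without KFs 3 they were −1.60 and 1.44. *Msx1* thus differed in each of the 3 contrasts, although the last of its calls was lost in 8 of 27 alternatives and the first without TFs 1 (adjusted p = 0.0523). The *Msx2* call between kidney and tail was lost without TFc 1 (adjusted p = 0.0544), and the *Tbx15* call between heart and kidney in a fit of only those groups (adjusted p = 0.0548). *Tbx4*, *Shox2* and *Dlx5* differed in none, with intervals as wide as −6.50 to 0.71 for *Dlx5* between heart and kidney. *Tbx4* between heart and tail (1.00, adjusted p = 0.0789) passed without KFs 3 (adjusted p = 0.0481) and without HFs 2 (adjusted p = 0.0325). It also passed in a fit of only the groups compared (adjusted p = 0.0389).

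Genes of the BMP pathway were read as a list of 18, all tested. After transplantation 7 fell and 3 rose in heart cells, 9 fell and 0 rose in kidney cells (10 fell without KFs 3) and 7 fell and 2 rose in tail cells, where 9.33%, 7.99% and 5.53% of all genes were called lower and 18.3%, 14.7% and 11% higher, with list medians of −0.16, −0.77 and −0.38 against 0.05, 0.09 and 0.00 over all genes. The kidney median was −1.6 without KFs 3. *Id1*, a direct BMP target, fell in all 3 organs (−3.65, −4.50 and −3.82), from 41.3 to 52.2 CPM in the cultures to 1.28 to 4.81 CPM. *Smad6*, an inhibitor that the pathway induces, fell by 2.65, 3.54 and 2.70 on the log2 scale, and *Smad9* by 1.63, 2.79 and 3.16, with adjusted p-values of at most 2.39e-05 for these 3 genes. *Smad5*, which carries the signal from the receptors, did not reach the fold limit in heart cells (0.61). *Msx2* was lower in each organ, as *Id1*, *Smad6* and *Smad9* were, while *Msx1* had a positive change in tail cells. The part of BMP signalling in the changes of *Msx1* and *Msx2* was not tested. Without KFs 3 the kidney values were −5.07 for *Id1*, −3.38 for *Smad6* and −2.79 for *Smad9*.

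**Figure D4:**
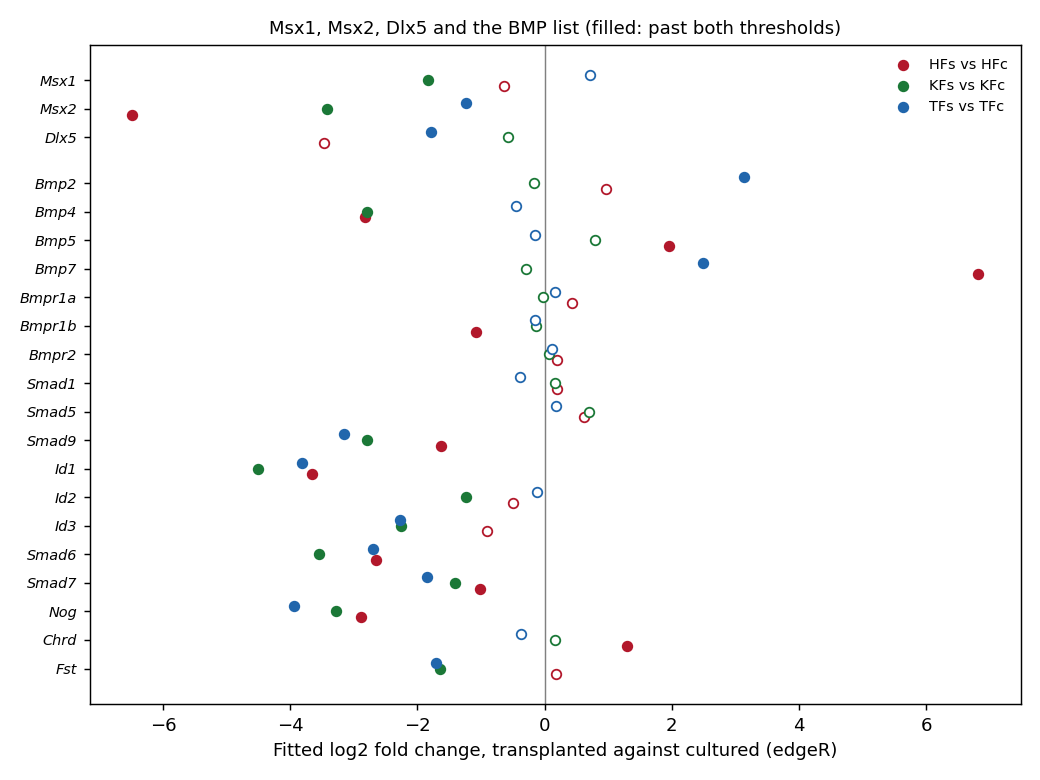
Fitted log2 fold change of transplanted against cultured cells (horizontal axis) for *Msx1*, *Msx2*, *Dlx5* (top) and the 18 genes of the BMP list (below), 1 colour per organ. Filled symbols passed both thresholds; *Id1*, *Smad6* and *Smad9* are filled and below 0 in each organ, and the value of *Msx2* in heart cells is fitted against counts of 0.

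Close relatives of the 8 genes formed a list of 14, of which 10 were tested. After transplantation 2 were higher and 1 lower in heart cells, 3 and 1 in kidney cells and 2 and 2 in tail cells. Without KFs 3 the kidney counts were 3 and 2. Of all genes 18.3%, 14.7% and 11% were higher and 9.33%, 7.99% and 5.53% lower. *Dlx2* fell in heart, kidney and tail cells (−2.64, −2.32 and −3.66), from 3.05 to 8.08 CPM in the cultures to 0.342 to 1.57 CPM. *Dlx6*, which lies 9236 bases from *Dlx5* on the opposite strand, rose in all 3 (1.95, 1.75 and 1.66), from 1.45 to 2.31 CPM to 4.55 to 7.63 CPM, where *Dlx5* fell or did not pass. Without KFs 3 the kidney values were −2.20 for *Dlx2* and 1.44 for *Dlx6*. An exon of *Dlx6* overlaps Dlx6os2, which had no counts. *Tbx18*, the nearest relative of *Tbx15*, rose in kidney (1.10, and 1.36 without KFs 3) and tail cells (1.38), and was higher in heart than in tail cells in both states (2.62 in culture and 1.55 after transplantation). *Dlx3*, a factor of skin and its appendages, fell in tail cells (−3.16).

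Of 30 other regulators of limb bud and dermal mesenchyme 25 were tested. In culture, HFc had 6 of them at higher and 14 at lower levels than TFc. KFc had 9 higher and 10 lower than TFc, and HFc had 2 higher and 12 lower than KFc (4 and 13 without KFs 3 in the fit). Of all genes 20.9% were higher and 21% lower in the first of these comparisons, 17.8% and 18.5% in the second and 15.1% and 14% in the third, so that 6 of 25 higher in HFc than in TFc was near the share of all genes. *Hand2*, a factor of heart and posterior limb, had 59.8 ± 3.76 CPM in HFc and at most 0.195 CPM on average in KFc and TFc. *En1*, a factor of ventral limb and dermis, had 18.5 ± 2.50 CPM in TFc and 2.42 ± 0.369 CPM in HFc, and *Zic1* had 22.8 ± 1.15 CPM in TFc against 0.321 ± 0.324 CPM in HFc. After transplantation 7 were higher and 2 lower in heart cells, 4 and 2 in kidney cells (4 and 4 without KFs 3) and 3 and 4 in tail cells. Of all genes 18.3%, 14.7% and 11% were higher and 9.33%, 7.99% and 5.53% lower. *Trps1*, a repressor in cartilage and hair, rose in heart cells (2.17), *Twist2* fell in kidney cells (−1.73, and −1.60 without KFs 3) and *Hic1* rose in tail cells (2.16). *Trps1* had 118 to 125 CPM in TFc and 215 to 299 CPM in TFs. The kidney call of *Trps1* rested on KFs 3, which had 85.4 CPM against 33.0 and 28.6 CPM in the other KFs libraries and 14.8 to 18.5 CPM in KFc. Its change was 1.58 with that library and 0.86 without it, under the fold limit.

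Of 16 limb bud signals 11 were tested. *Gli1*, a target of hedgehog signalling, rose in kidney (3.73) and tail cells (4.69) and at least 29.3-fold in heart cells, where HFc had at most 3 counts, and reached 14.6 to 21.5 CPM in TFs. In kidney cells 5 of the 11 fell and 1 rose (7 of 12 fell without KFs 3), where 7.99% of all genes were lower and 14.7% higher, among them *Cyp26b1*, which degrades retinoic acid (−4.58), and the Wnt agonist *Rspo2* (−3.89). Without KFs 3 these were −4.35 and −3.51, and *Gli1* was 4.05. In heart cells 2 of the 11 rose and 0 fell, and in tail cells 3 rose and 1 fell. Of all genes 18.3% were higher and 9.33% lower in heart cells, and 11% and 5.53% in tail cells. In tail cells *Aldh1a2*, which makes retinoic acid, rose (5.04), from 1.57 ± 0.071 to 51.7 ± 17.9 CPM. Of 10 genes of the skeletal programme 6 were tested. After transplantation 2 were higher and 0 lower in heart cells, 3 and 1 in kidney cells and 1 and 2 in tail cells. Without KFs 3 the kidney counts were 2 and 1 of 7 tested. Of all genes 18.3%, 14.7% and 11% were higher and 9.33%, 7.99% and 5.53% lower. *Sp7*, an osteoblast factor downstream of *Dlx5*, fell in tail cells (−3.40), and *Spp1*, which encodes osteopontin, rose in heart (4.32) and kidney cells (3.37, and 2.50 without KFs 3).

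The genes whose log2 CPM was most like that of each factor over the 18 libraries are a description, since libraries share their groups. They were *Ptgr1*, *Focad* and *Cnpy3* for *Tbx15* (Pearson's r 0.944, 0.932 and 0.924), *Adcy2*, *Arsj* and *Cdh17* for *Tbx4* (0.976, 0.971 and 0.971), and *Sdc3*, *Stard8* and *Rcsd1* for *Shox2* (0.963, 0.957 and 0.955). For *Msx1* they were *Stard5*, *Ccn5* and Gm15851 (0.917, 0.912 and 0.910), for *Msx2* *Hoxc13*, *Etv5* and *St3gal2* (0.961, 0.961 and 0.953), and for *Dlx5* *Scn1a*, *Galnt13* and *Hoxb5os* (0.955, 0.944 and 0.937). By Spearman's rho 2 of these 3 were again named for *Tbx15* and *Msx2*, 1 for *Dlx5* and 0 for the other 3 factors. Among the factors themselves r was highest between *Tbx15* and *Tbx4* (0.848) and between *Msx2* and *Dlx5* (0.754), and was 0.175 between *Msx1* and *Msx2*.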

How the data were processed

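RNA of 18 libraries was sequenced as 75-base single-end reads from stranded libraries. The authors trimmed reads and ran RSEM with Bowtie2 on GRCm38, and deposited expected counts per gene, here whole numbers without normalization. The submitters' processing notes name Bowtie, RSEM and mm9, so the build is not settled, and the annotation release is not given in the sources used here. Symbols and positions are from GENCODE vM21 (GRCm38). Totals and floors are in the report.

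Counts were tested in R 4.3.3 with edgeR 4.0.16 (filterByExpr, TMM, quasi-likelihood F test) on all 18 libraries, with 1 mean for each group. Benjamini-Hochberg adjustment ran across 16577 genes. The labels name no batch. Same-numbered replicates correlated by −0.139 to 0.0792 in their deviations and were not paired in the fit. The code was tested on simulated data in which all genes and groups had the same spread. There, estimates were unbiased and false calls were near the nominal rate, but many changes of 1 on the log2 scale were missed. A p over the threshold thus says little about changes of that size. The real libraries correlated by 0.917 to 0.973 within KFs and by 0.984 to 0.985 within KFc. Where spreads differ between groups in this way, the simulation does not give the rate of false calls. An earlier form of this test set a recovery bound that the design cannot reach. It was replaced, after its result was seen, by a comparison with the recovery expected when the spread is known.

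The genes and lists were chosen with earlier results of these data known. From each list, up to 4 genes with the smallest adjusted p in a comparison were eligible to be named, and the 3 genes most like each factor. Alternatives were DESeq2 1.42.0, other scalings and filters, thinning, a replicate block, only the groups compared, another fold limit and each library left out. List counts and kidney values of list genes without KFs 3 were added after the data were seen. Promoters were read with Python 3.11.15.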

Additional observations from a re-analysis of the deposited data

Results flagged for a closer look

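The response to transplantation differed between organs, by the test of the difference itself, for 3 genes. For *Tbx15* the log2 difference was −1.53 between heart and tail cells and −1.33 between heart and kidney cells, its fitted change being −0.78 in heart, 0.55 in kidney and 0.75 in tail cells. For *Msx1* it was −1.36 between heart and tail, −2.55 between kidney and tail and 1.19 between heart and kidney cells. For *Msx2* it was −2.19 between kidney and tail cells, and between heart and tail the fitted value was −5.25, which rests on counts of 0 in HFs and is no measured size. Without KFs 3 in the fit *Tbx15* was −1.60 between heart and kidney, with a kidney change of 0.83. *Msx1* was then −2.77 between kidney and tail and 1.44 between heart and kidney, and *Msx2* was −2.10 between kidney and tail. Single genes were not searched for outlying libraries within groups of 3. KFs 3 was singled out by its whole-library values, and each library was left out in turn.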

How the results depend on the processing

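Over 72 results for single genes and 1934 alternatives in all, 1834 kept direction and side of the threshold, 65 lost the call, 26 gained it and 9 changed sign. Calls after transplantation in heart cells numbered 2, with 1 after thinning, 0 in a fit of only the groups compared and 4 with no fold limit, and 1 to 3 with a library left out. In tail cells 3 calls became 1 with no filter and 5 with no fold limit, and 0 to 3 with a library left out. Between HFs and KFs 5 became 2 in a fit of only the groups compared. Over all genes such fits called 7508 of 14725 between HFc and KFc and 8675 of 14956 between KFc and TFc. The main fit called 4833 and 6026 of 16577. For the differences between responses, heart against kidney went from 2 to 1 with library size alone or only the groups compared, and to 1 to 2 with a library left out, and kidney against tail to 1 to 2. In a fit of HFs with HFc or KFs alone, *Tbx4*, *Msx2* and *Dlx5* did not pass the filter on low counts, which accounts for the calls missing there. For the other changes the cause was not tested. When replicate numbers entered as a block, counts stayed at 2 in heart, 3 in kidney and 5 in HFc against TFc, and were 2 in tail cells, where *Shox2* was lost (adjusted p = 0.0517), and 5 between KFs and TFs, so the block moved no count by over 1.5 times. The labels do not say whether same-numbered libraries share animals, and a block over so few replicates cannot exclude it.

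Signs changed for *Tbx15* between HFs and KFs (−0.15 with library size alone, −0.04 without HFs 1 and −0.29 without KFs 3) and for its response in kidney against tail cells (0.11 without KFs 3). They changed for the response of *Shox2* (−0.52 without KFs 1 for kidney against tail, −0.23 without KFs 3 for heart against kidney). Without HFc 2, the only heart library with counts of *Dlx5*, its change in heart cells was 0.00 and its response differences 1.79 against tail and 0.58 against kidney. With each library left out in turn, the lowest or highest values at the other end were 0.35 for *Tbx15* between HFs and KFs and −0.53 for its response, 0.80 and 1.05 for the responses of *Shox2*, and −4.03, −2.24 and −3.45 for *Dlx5*. Scaling by library size alone moved the median of all genes to −0.25 between HFs and TFs, −0.25 between HFs and KFs and −0.16 between HFc and TFc. Genes near 3 counts are limited by depth.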
